A study of Drosophila melanogaster with 3 samples.

Results

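The genes described are 10 Polycomb and trithorax group genes of Drosophila melanogaster, taken from 13945 protein-coding genes on the 6 chromosome arms: Pc, ph-p, ph-d, Psc, Su(z)2, E(z), esc, Su(z)12, Trl and trx. They were listed by name, and a peak was placed at a gene when its summit lay inside the annotated gene or within 1 kb of it. The data map Vrille, a bZIP transcription factor of the circadian clock, on chromatin. Whole white prepupae of both sexes from 1 transgenic line carried vri with GFP at the C terminus, and an anti-GFP antibody was used on sonicated chromatin. The 3 biological replicates form 1 group. Because whole animals were used, the values mix all tissues, and no cell type can be assigned to a peak. Mock or untagged animals were not analysed here, and the read depth is unknown because the peak lists hold no read counts.

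Polycomb group proteins keep genes silent through cell division, and trithorax group proteins keep genes active. Polycomb repressive complex 1 (PRC1) is built in the fly from Pc, which reads methylated histone H3 lysine 27, from the paralogous Polyhomeotic proteins of ph-p and ph-d, and from Psc or its paralogue Su(z)2, which compact chromatin. Polycomb repressive complex 2 (PRC2) writes that methyl mark through the catalytic subunit E(z) with its partners esc and Su(z)12. The trx gene encodes a histone H3 lysine 4 methyltransferase, and Trl encodes GAGA factor, which binds GAGAG repeats and opens chromatin. Polycomb and trithorax group proteins are best known for holding the Hox genes off or on.

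Of the 10 genes, 6 held at least 1 of the 9264 peaks that passed the authors' irreproducibility threshold (optimal peaks), and 4 held none. The 6 were ph-p, ph-d, Psc, Su(z)2, Trl and trx, and they carried 23 optimal peaks between them. Among all protein-coding genes 33.9% held an optimal summit under the same rule. Both genes outside the repressive complexes had peaks, 4 of the 5 PRC1 genes had them, and none of the 3 PRC2 genes did. Pc, E(z), esc and Su(z)12 were the genes without one. Of the 23 summits, 14 lay in introns, 6 in 5′ untranslated regions and 3 upstream of the gene.

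The peak heights below are relative signals. The authors' signal value of a replicate's entry was divided by that replicate's median over all optimal peaks, so that 1 is the height of a typical optimal peak. Ranks are places in the authors' optimal list, in which 1 is the highest of 9264. Coordinates are dm6, 1-based, on annotations of Ensembl release 115.

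The 6 summit windows below show what the peaks look like in sequence, from the RefSeq assembly of dm6, plus strand, 5′ to 3′, each reaching 50 bp to either side of its summit. The first 4 are centred on the highest peaks outside untranslated regions at ph-p (chrX:2137266-2137366), Trl (chr3L:14759446-14759546) and trx (chr3R:14283861-14283961 and chr3R:14278016-14278116). The last pair, at ph-p (chrX:2135545-2135645) and Trl (chr3L:14756477-14756577), was chosen after the motif counts were seen, for its copies of GAGAG. Capitals mark GAGAG or its reverse complement CTCTC, the word bound by GAGA factor, the product of Trl itself.
ph-p, highest peak: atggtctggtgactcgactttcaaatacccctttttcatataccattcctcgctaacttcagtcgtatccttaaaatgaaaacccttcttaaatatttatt
Trl, highest peak: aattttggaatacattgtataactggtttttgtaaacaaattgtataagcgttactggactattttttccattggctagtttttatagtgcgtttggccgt
trx, highest peak: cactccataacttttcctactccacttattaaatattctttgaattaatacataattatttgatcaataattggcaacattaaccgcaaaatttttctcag
trx, next peak: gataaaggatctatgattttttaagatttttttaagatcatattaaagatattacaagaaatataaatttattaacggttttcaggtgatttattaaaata
ph-p, peak with GAGAG: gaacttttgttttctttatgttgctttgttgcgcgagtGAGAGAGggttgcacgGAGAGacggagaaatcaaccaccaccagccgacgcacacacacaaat
Trl, peak with GAGAG: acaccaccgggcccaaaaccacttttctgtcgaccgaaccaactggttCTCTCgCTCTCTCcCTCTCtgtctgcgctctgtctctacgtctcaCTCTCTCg

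The first 4 windows hold no capitals and are rich in A and T. Their G+C content was 34.7% at ph-p, 31.7% at Trl, and 26.7% and 17.8% at trx. Of the 23 peaks, 6 ranked within the first 600 of the optimal list, a line drawn after the ranks were seen, and all 6 had under 35% G+C, with a median of 27.7%. The other 17 ran from 29.7% to 58.4%, with a median of 46.5%. Over all optimal peaks the median was 39.6% within the first 600 and 40.6% after them, so the high and the low peaks of the whole list differed by 1 percentage point.

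GAGAG was found within 50 bp of the summit, on either strand, in 4 of the 23 peaks (17.4%), against 16.7% of all optimal peaks. Within 25 bp it was also in 4 of the 23, against 9.07%. There was 1 such peak each at ph-p, Psc, Trl and trx. The window at Trl held 6 copies, overlapping copies included, and those at ph-p, Psc and trx held 3 each. Windows with 3 or more copies made up 3.09% of the 9040 optimal peaks with an entry in every replicate. GCCAT, the core of the site of the Polycomb recruiter Pho, stood in 2 of the 23 windows (8.70%) and in 16.2% of all optimal windows, with 1 at Psc and 1 at trx.

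The words associated with Vrille and other bZIP factors did not occur in the 23 windows. The VP box, TTACGTAA or TTATGTAA, was in 2.34% of all optimal windows. The C/EBP words TTACGTAA, TTGCGCAA, TTGCGTAA and TTACGCAA, of which the first is also a VP box, were in 1.96%. The CRE word TGACGTCA was in 0.421%, the DREF word TATCGATA in 0.788% and the E box CACGTG in 1.12%, and these also had 0 matches at the 23 peaks. At such shares 0 of 23 is near the background. All searches covered both strands, and a match is a description of the letters only.

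**Figure D1:**
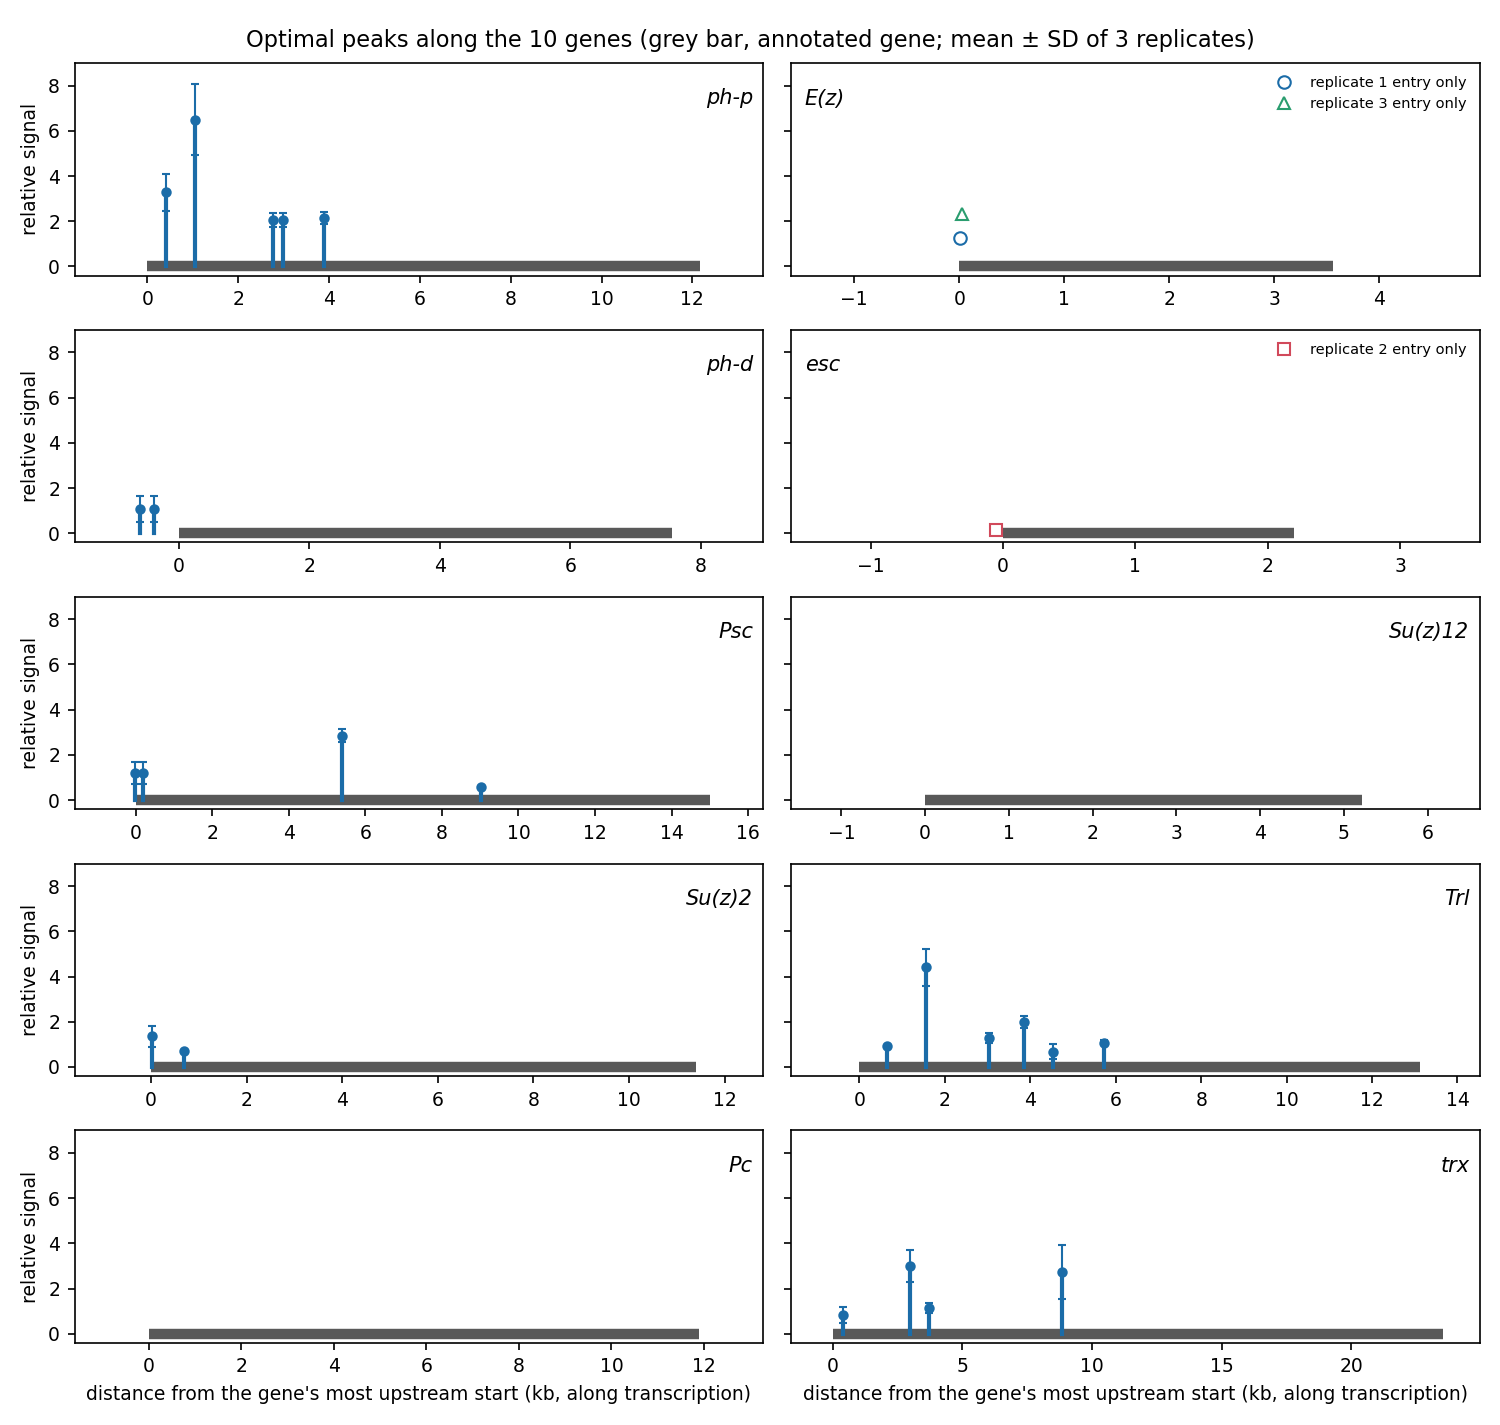
Optimal peaks along each of the 10 genes. The horizontal axis is the distance in kb from the gene's most upstream annotated start, along transcription; stems give the mean relative signal with SD (n = 3), the grey bar is the gene, and open symbols at E(z) and esc are entries of single replicates that are in no pooled or optimal list. The highest stem is at ph-p (6.50), peaks at Psc, Trl and trx lie both near the start and inside the gene, and Pc and Su(z)12 are empty.

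Among the PRC1 genes, ph-p had the highest peak of all 10 genes. The summit at X:2137316, in the peak 2136930 to 2137739, was in an intron, 461 bp upstream of the nearest of the gene's 3 annotated start sites, and ranked 76. Its relative signal was 8.19, 5.14 and 6.16 in replicates 1, 2 and 3, a mean of 6.50 ± 1.55 (SD, n = 3). Every replicate therefore placed it at more than 5 times the typical optimal peak, and 98 genes in the genome held a higher peak. A second peak in the 5′ untranslated region, 401 bp inside the gene's first start (summit X:2137970, rank 430), had 2.97, 2.64 and 4.21, a mean of 3.28 ± 0.831.

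Further inside ph-p stood 3 intronic peaks, with summits 1027, 1230 and 2140 bp downstream of a start. The last, at rank 1118, had 2.41, 1.88 and 2.20. The other two, at ranks 1157 and 3651, overlapped the same entry in each replicate and so share the values 1.81, 1.91 and 2.39. None of the 5 peaks of ph-p fell below 1.8 in any replicate. Genes of similar length, from 6458 to 14581 bp, held 1.44 summits on average, and 498 of all genes had at least as many as ph-p.

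The tandem paralogue ph-d had a much lower signal. Its 2 optimal peaks, at X:2123673 (rank 5002) and X:2123885 (rank 8176), lay 387 and 599 bp upstream of the gene and matched a single entry in each replicate. That entry had 1.54, 1.24 and 0.439, a mean of 1.07 ± 0.570. Replicates 1 and 2 were above the typical peak and replicate 3 was below it, and in replicate 3 neither peak was matched by one of the 9264 highest entries. The highest peak of ph-p exceeded that of ph-d by 2.41, 2.05 and 3.81 on the log2 scale, a mean of 2.76 (SD 0.930, n = 3) or 6.76-fold, in 3 of 3 replicates. A two-sided exact sign-flip permutation test over 3 replicates gave p = 0.25, the smallest it can give.

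The ph-p and ph-d genes lie 2923 bp apart and share sequence. Their upstream regions aligned over 494 bp at 95.7% identity, from X:2136755 to 2137261 at ph-p and from X:2123189 to 2123693 at ph-d. The first ph-d summit lay inside the shared stretch, 20 bp from its end, whereas the highest ph-p summit lay 55 bp beyond it. The second ph-p peak aligned less closely, over 181 bp at 77.9% identity, from X:2137659 to 2137855, with X:2123871 to 2124052 at ph-d. The second ph-d summit lay inside that stretch, and the second ph-p summit lay outside it. Of all 31-base words in the gene and its 1 kb flanks, 71.6% at ph-p and 72.5% at ph-d occurred once in the genome. Over the whole peak interval the share was 87.7% at the highest ph-p peak (810 bp) and 84.9% at the first ph-d peak (216 bp). An annotated FB transposon covers 1446 bp of the 12162 bp of ph-p. The repeated words of ph-p therefore need not all be shared with ph-d. How reads in repeated sequence were assigned is not stated in the labels or note files, and the part this has in the difference was not tested. A further optimal summit stood between the genes, 1184 bp upstream of ph-d, at rank 5024.

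Psc and Su(z)2 are the other pair of paralogues, on arm 2R, 15506 bp apart and transcribed away from each other. The highest Psc peak was in an intron 5053 bp downstream of a start (summit 2R:12975605, rank 570) and had 2.67, 2.73 and 3.17, a mean of 2.85 ± 0.272. These replicates lay close together, and each was well above the typical peak. At the Psc start, 2 neighbouring peaks (ranks 3519 and 6343, summits 155 and 22 bp upstream of a start) matched the same entries, with 1.44, 1.56 and 0.659. The fourth Psc peak, deep in the gene at rank 9069, had 0.632, 0.548 and 0.614.

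Su(z)2 had its 2 peaks at its 2 annotated starts. The summit at 2R:12996513, 12 bp into the gene and at rank 2598, had 0.827, 1.64 and 1.62, a mean of 1.36 ± 0.464, with replicate 1 the low one. The summit 73 bp after the second start, at rank 6621, had 0.676, 0.713 and 0.755. The highest Psc peak exceeded the highest Su(z)2 peak by 1.69, 0.74 and 0.96 on the log2 scale, a mean of 1.13 (SD 0.499, n = 3) or 2.19-fold, in 3 of 3 replicates, and the exact sign-flip permutation p was again 0.25. Between the 2 genes, more than 1 kb from both, were another 2 optimal summits, at ranks 1627 and 7175.

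Pc was the PRC1 gene without a peak. No entry of the optimal, pooled or replicate lists had its summit in the gene or within 1 kb. The annotated gene spans 11883 bp (3L:21306138-21318020), but a roo transposon in the assembly covers 9101 bp of it and leaves 2782 bp, and 34.7% of its 31-base words occurred once in the genome. Its length class in the annotation is thus that of a long gene, while its own sequence is that of a short one. The nearest optimal summit, at 3L:21304574, was 1564 bp beyond the 3′ end and belonged to the start region of CG7632 and CG11309. That peak ranked 56, with a mean of 6.92 ± 1.05, and counts for Pc only when the flank is widened to 2 kb.

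The PRC2 genes had no optimal peak, but they differed in what the replicate lists held. Su(z)12 had no entry in any list, and its nearest optimal summit was 5120 bp away, at CG8004 and RhoGDI. For esc the lists held 1 entry, in replicate 2, 49 bp upstream of the start at rank 27864 of 30000 with a relative signal of 0.156, near the lowest value of that list, 0.141. E(z), the catalytic subunit, had no pooled entry and no entry in replicate 2. Replicate 1 did hold one at its start (summit 3L:10638120, 10 bp into the gene, rank 3126, relative signal 1.24), and replicate 3 another (summit 3L:10638099, 31 bp into the gene, rank 965, relative signal 2.33).

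The E(z) start was thus among the 9264 highest entries in 2 of 3 replicates and absent from the pooled list of 30000. Other entries shared this: of the 9264 highest entries of replicates 1, 2 and 3, 343, 251 and 204 had no pooled entry over them. Among the first 1000 entries, where the replicate 3 entry at E(z) ranked but the replicate 1 entry did not, there were 13, 3 and 18. The start is shared with Cnep1r2, whose start site lies within 1 kb, so the entries cannot be assigned to one of the 2 genes. No optimal summit stood within 15 kb of E(z), the nearest being 15130 bp away.

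Trl, the gene of GAGA factor, had the most peaks of the 10 genes, 6 in 13121 bp, and 355 genes had at least as many. Its highest peak, at 3L:14759496, was in an intron 1534 bp upstream of the nearest of 4 start sites and ranked 187. It had 4.40, 3.58 and 5.23, a mean of 4.40 ± 0.826. This was the second highest peak among the 10 genes, and every replicate placed it below the highest peak of ph-p and above the highest peak of every other member. The replicate ranges of ph-p (5.14 to 8.19) and Trl (3.58 to 5.23) touched, though within each replicate ph-p was higher.

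The other Trl peaks ran down the first part of the gene. The summit at 3L:14757193, 143 bp after a start in the 5′ untranslated region, had 2.31, 1.83 and 1.86, and the one at 3L:14758006, 44 bp upstream of a start, had 1.19, 1.10 and 1.53. Both lie within 1 kb of the start of CG42507, which overlaps Trl. The summits at 3L:14757193, 3L:14755331 and 3L:14756527 lie inside both genes, so these 4 peaks cannot be assigned to one of them. The peaks at 3L:14755331 (1.08 ± 0.124) and 3L:14760399 (0.926 ± 0.0629) were of typical height. The lowest, at 3L:14756527 (rank 7380), with the 6 GAGAG copies, had 0.677, 1.00 and 0.355.

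The trx gene, 23546 bp long with 1 annotated start, had its high peaks deep in its introns rather than at its start. The highest by mean was 2992 bp downstream of the start (summit 3R:14283911, rank 492), with 3.23, 2.22 and 3.58, a mean of 3.01 ± 0.707. The next was 8837 bp downstream (summit 3R:14278066, rank 568), with 2.28, 1.83 and 4.08, a mean of 2.73 ± 1.19. The 2 overlap in their replicate values and change places in replicate 3. A summit 3700 bp downstream had 0.925, 1.33 and 1.17, and the one 408 bp downstream, in the 5′ untranslated region, had 1.12, 0.894 and 0.430.

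In order of their highest peaks the genes were thus ph-p (6.50), Trl (4.40), trx (3.01), Psc (2.85), Su(z)2 (1.36) and ph-d (1.07). Neighbours in this order did not all separate: trx was above Psc in replicates 1 and 3 and below it in replicate 2, and Su(z)2 was below ph-d in replicate 1 and above it in replicates 2 and 3. The median rank of the highest peak was 531 over the 6 genes, against 2839 over all genes with a peak. These ranks were not matched for gene length or number of summits. The 6 genes held 2 to 6 summits each, and all genes with a peak held a median of 2. A summit within 1 kb of one of the gene's own start sites was found at 6 of the 10 genes, against 27.5% of all genes. Of all genes with any summit, 80.9% had one there; so did all 6 members with a peak. The share of summits there was 13 of 23, and of all optimal summits 49.1% were as near to the start of any protein-coding gene. At ph-p, Psc, Trl and trx, 4 of the 10 genes, there were 4 or more optimal summits, which 5.44% of all genes had. In the length classes of these genes that share was higher. It was 13.8% in the class of ph-p and Trl (6458 to 14581 bp). It was 31.8% in the class of Psc and trx (14601 bp or more), whose median length of 28644 bp is above that of both genes. Only at Su(z)2 and ph-d was every summit within 1 kb of a start site.

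**Figure D2:**
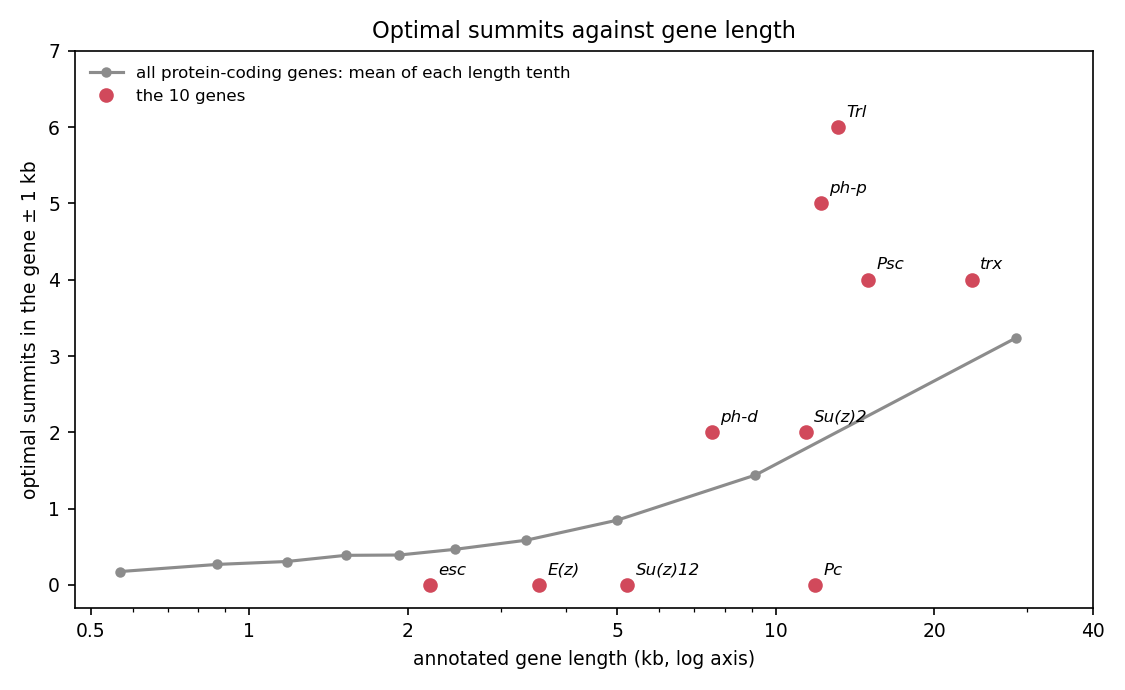
Optimal summits in the gene and its 1 kb flanks against annotated gene length in kb, on a log axis. Red points are the 10 genes; grey points are the means of all protein-coding genes in 10 length classes of near-equal size, at the class's median length. Trl and ph-p, with 6 and 5 summits, and Su(z)2 and ph-d, with 2 each, are in a class with a mean of 1.44. Psc and trx, with 4 each, are in one with a mean of 3.24, whose median length of 28644 bp is above that of both. The 3 short PRC2 genes and Pc lie at 0.

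Longer genes hold more summits, so the counts were also read by length, in classes set after the counts were seen. The 3 members under 6 kb, which are the PRC2 genes E(z), esc and Su(z)12, had none, where 27.3% of the genes of that length had a summit. Of the 7 members between 6 and 24 kb, 6 had one, where the share was 56.4%. The gap between PRC1 and PRC2 among the members therefore runs along with gene length, and its part in the difference was not tested. In the pooled list, which includes background entries, 6 of the 10 genes had an entry, against 48.7% of all genes. The members with a pooled entry were the ones with an optimal peak. A summit among the 9264 highest entries of all 3 replicates was found at 5 of the 10 genes, against 28.8% of all genes; ph-d was the one lost, in replicate 3.

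**Figure D3:**
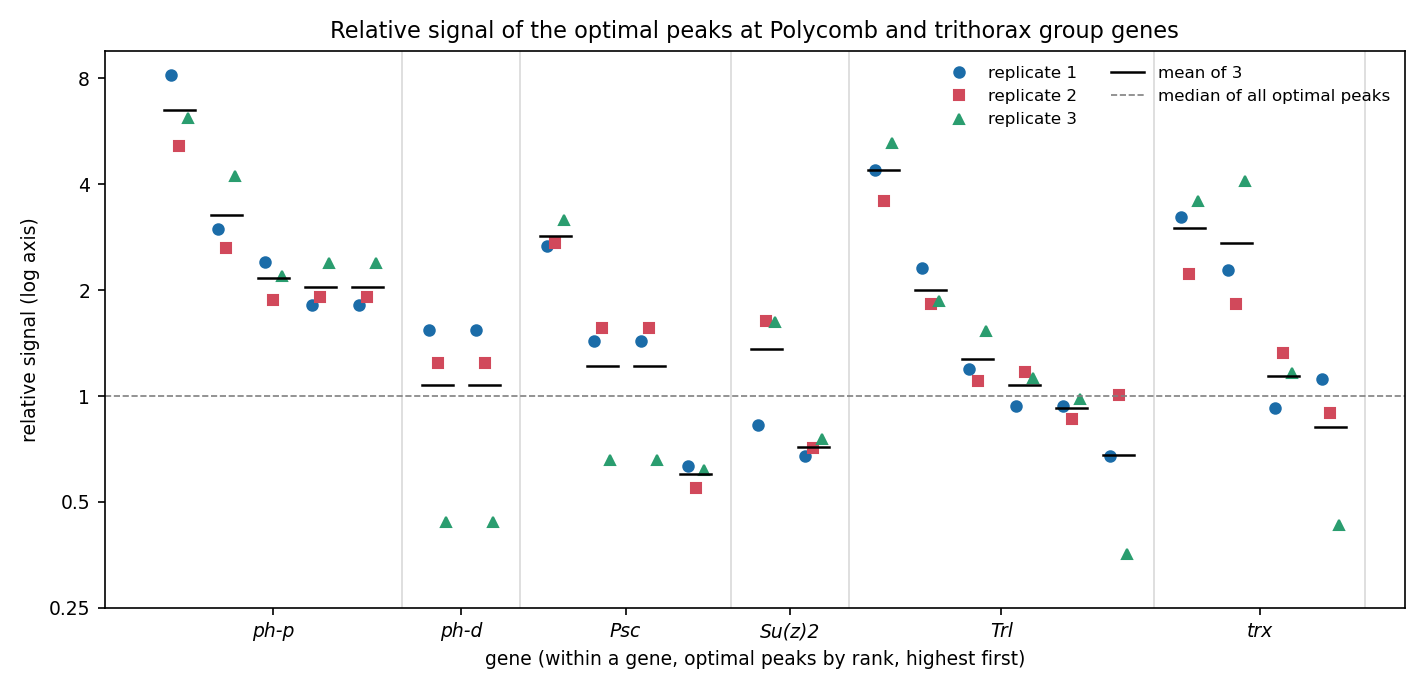
Relative signal of each of the 23 optimal peaks in replicates 1, 2 and 3, on a log axis where 1 is the replicate's median over all optimal peaks; bars are means of 3. Within a gene, peaks are ordered by rank. Pairs with identical points share 1 entry per replicate, and replicate 3 is the low point at peaks of ph-d, Psc, Trl and trx.

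The replicates repeated each other at most of these peaks, which the optimal list selects for. In each replicate, 3 entries matched 2 of the 23 peaks each, so the 23 are not all separate measurements. Of the 23, 19 overlapped one of the 9264 highest entries of every replicate, against 70.5% of all optimal peaks, and the median coefficient of variation was 18.7%, against 21.6%. The 4 that did not were both ph-d peaks, the Trl peak with 6 GAGAG copies and the trx peak nearest the start. All 4 were missed in replicate 3.

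In replicate 3, 6 of the 23 peaks were at or below 0.5 times the mean of the other 2 replicates, a level reached by 3.34% of the 9040 optimal peaks with entries in all 3. They were both ph-d peaks (−1.66 on the log2 scale), the start peaks of Psc (−1.18), the Trl peak at 3L:14756527 (−1.24) and the trx peak at 3R:14286495 (−1.23). Because the ph-d pair and the Psc pair each share an entry, these are 4 measurements. Of the 6 peaks, 5 had at least 50% G+C around the summit, a line drawn after the values were seen, as did 6 of the 23 in all. The exception of that group was the deep Psc peak, at 52.5% G+C and 0.06 on the log2 scale. Over all optimal peaks with at least 50% G+C the median was −0.18 and 4.90% reached the level; below 50% the median was 0.02 and 3.02% reached it. All 6 low peaks also lay near a start site, at 22 to 809 bp. Of the 13 peaks at most 1 kb from a start, 6 were lower in replicate 3 than in both others and 4 were higher. Among the 10 farther off, 0 were lower and 6 higher. Over all optimal peaks the medians were −0.06 near starts and 0.01 farther off. With 3 or more GAGAG copies, 3 of 4 member peaks were low. Among all optimal peaks with as many copies, 6.81% reached the level. The parts that base composition, start distance and GAGAG have in the low values of replicate 3 were not tested.

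**Figure D4:**
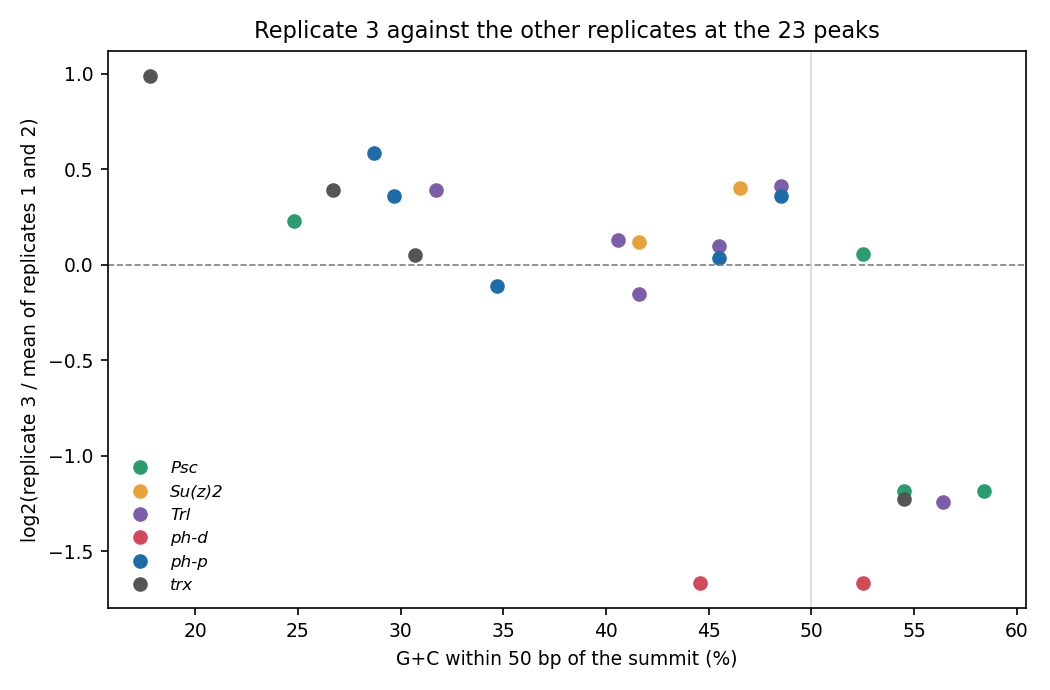
Replicate 3 over the mean of replicates 1 and 2, as log2 of relative signals, against the G+C percentage within 50 bp of the summit, for the 23 peaks coloured by gene. The points share libraries and some share entries. The 6 low points lie between −1.66 and −1.18, and 5 of them have at least 50% G+C; the trx peak with 17.8% G+C is the highest.

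Beyond the 10 genes, 64 further genes of the same groups were counted by role. An optimal summit was found at 31 of them (48.4%), against the 33.9% of all genes given above. Read by length, it was found at 9 of 29 genes under 6 kb, where all genes had 27.3%, and at 14 of 26 between 6 and 24 kb (53.8%), where all genes had 56.4%. Both are near the background. Of the 9 longer genes 8 had one, where all genes had 64.3%. With the 10 members included, PRC1 had summits at 4 of 6 genes, PRC2 at 2 of 8, the DNA-binding Pho complex PhoRC at 1 of 3 and the histone deubiquitinase PR-DUB at 1 of 2. These come to 8 of 19 genes (42.1%). The PhoRC summit was that of phol, and it lay downstream of phol within 1 kb of the starts of CG3448 and ghi. The highest peaks of Jarid2 (PRC2) and caly (PR-DUB) were also within 1 kb of the starts of other genes. A summit within 1 kb of one of the gene's own start sites was found at 23 of the 64 further genes, against 27.5% of all genes. Genes of the repressive complexes without a summit were, besides the 4 members, Sce, Caf1-55, escl, Pcl, pho, Sfmbt and Asx.

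The highest peak in the wider list was credited to ash1, a histone H3 lysine 36 methyltransferase of the trithorax group, at 11.8 ± 1.69, but its summit lay downstream of ash1 within 1 kb of the start of CG14100. Next came osa (8.38 ± 1.48), a subunit of the BRM remodelling complex, and tara (7.75 ± 0.883), in introns of their own genes. Mnn1, the fly Menin, had 6.79 ± 0.244 at its start, and corto had 4.10 ± 0.439. By their means these were above Psc and trx, and the first 4 were above ph-p. In replicate 1, however, Mnn1 (6.86) was below ph-p (8.19). Adf1 (3.76 ± 0.753) was also above Psc and trx by its mean, but in replicate 3 (2.90) it was below both (3.17 and 3.58). Then followed brm (2.85 ± 0.989, near the start of Arl1), grh (2.82 ± 0.897) and Kdm2 (2.78 ± 0.482). The remaining 6 of the 15 highest were cg (2.43 ± 0.502), Dsp1 (2.32 ± 0.708, near the start of CG9921), kis (2.20 ± 0.490), jing (2.03 ± 0.166), tna (1.97 ± 0.380) and fs(1)h (1.95 ± 0.109).

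**Figure D5:**
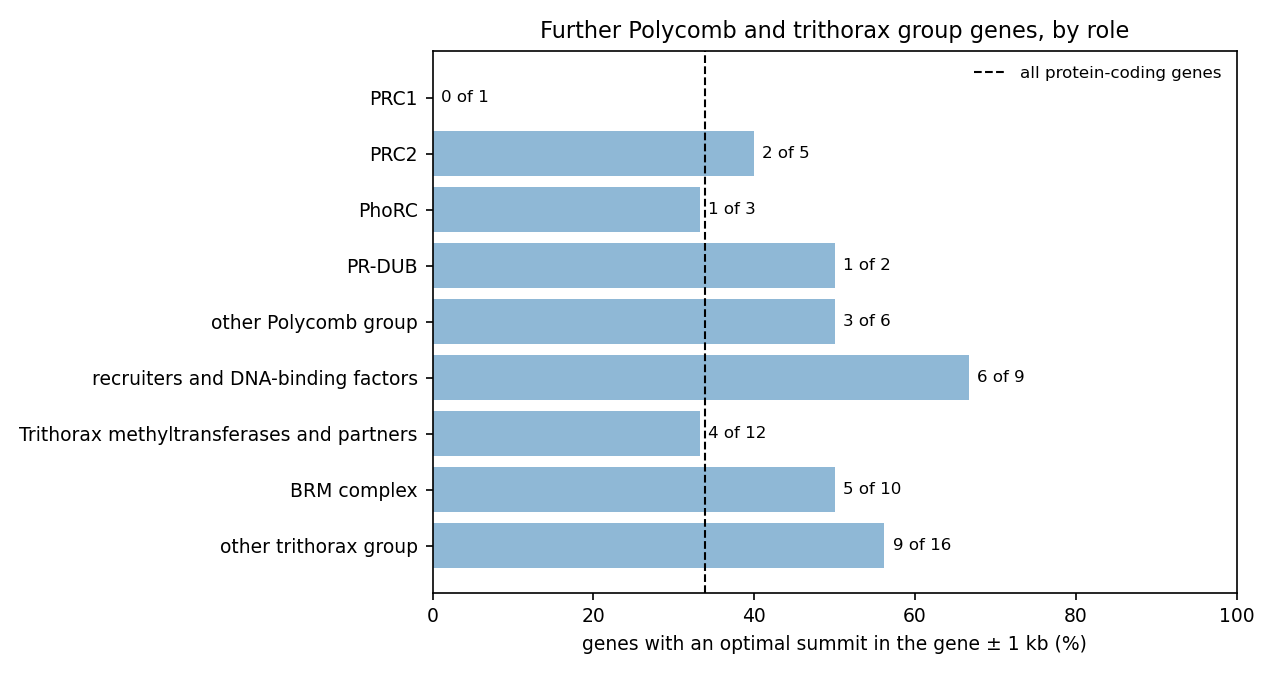
Share in percent of the 64 further Polycomb and trithorax group genes with an optimal summit in the gene or within 1 kb, by role, with counts beside the bars. The dashed line is the 33.9% of all protein-coding genes. DNA-binding recruiters had the highest share, 6 of 9, and methyltransferases and partners had 4 of 12.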

How the data were processed

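Chromatin immunoprecipitation for vri-GFP was sequenced in 3 replicates of 1 group. Each deposited list holds the authors' signal value per peak, which is not scaled between libraries. Per the depositors' note files, replicate and pooled lists of 30000 entries were the input of the irreproducible discovery rate (IDR), which gave the optimal list of 9264. Which aligner, peak caller and threshold were used is not given in the sources used here. The lists hold no read counts, so depth is unknown and no counting interval is given.

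From the dm6 lists, summits were placed on Ensembl release 115 genes with 1 kb flanks. A replicate's value is its highest entry overlapping the optimal peak by at least 1 bp, divided by that replicate's median at optimal peaks (88.2, 50.8 and 84.9 for replicates 1, 2 and 3). Optimal peaks with no entry in these replicates numbered 20, 140 and 68. Motifs were searched within 50 bp of summits. With 1 group no comparison between groups was made; differences between paralogues used an exact sign-flip test over replicates. Shared upstream sequence was found by local alignment. Counting and matching were tested on simulated data.

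The members and lists, and the tests, were chosen with earlier results of these data known. Genes named are all members, the 15 further genes with the highest peaks, and Polycomb complex genes without a summit or with their highest peak near another gene's start. Of the wider list, 4 names matched through RefSeq synonyms. Windows printed are of the highest member peaks, with a pair chosen after the motif counts. Python 3.11.15, NumPy 2.4.6, pandas 2.3.3 and matplotlib 3.10.9 were used.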

Additional observations from a re-analysis of the deposited data

How the results depend on the processing

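Of 98 values recomputed under alternatives, 86 stayed within their limits, 12 moved and 0 reversed. Counts of members with a peak ran from 5 to 7. The member lost was ph-d, with gene bodies only, with the stronger 50% of the peaks, in replicate 3's own list, and without replicate 1 or replicate 2; the members gained were Pc with 2 kb flanks and E(z) in the lists of replicates 1 and 3. Gene bodies only gave a share of all genes of 18.8%. Member peaks found in all 3 replicates fell from 19 to 11 when 50% of the peak had to be covered, and also to 11 with 50% as many entries. With 150 bp on each side GAGAG was in 14 of the 23 peaks (60.9%, against 42.7% of all optimal peaks) and GCCAT in 6 (26.1%, against 41.2%). With 25 bp GAGAG was in 4 (17.4%, against 9.07%) and GCCAT in 0, against 8.02%. The cause was not tested, apart from the wider or narrower window itself. Dividing by the whole-list median instead raised all 6 relative signals of the highest peaks, ph-p to 20.1. With 1 group there was no replicate block to fit; paralogues were compared within each replicate.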
